A study of Triticum aestivum with 21 samples.

Results

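The probe sets described here were bright in wheat anthers at 6 successive stages and fell to a low signal in mature anthers. They were chosen by their measured levels. A probe set was taken when its mean log2 intensity in mature anthers (MAN) lay at least 6 below its mean in each of the other 6 stages, a drop of at least 64-fold in signal. The rule found 59 probe sets of the 61162 to which it was applied. Of the 61290 probe sets deposited, 111 are array controls, and 17 that the study designed primers for were left out. Because the drop in MAN chose the 59, it is described below and not tested.

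The samples were whole anthers of wild-type bread wheat (Triticum aestivum L. cv. Chinese Spring) grown in a glasshouse, with no treatment. Anthers labelled PM had not entered meiosis. LP anthers were at leptotene, zygotene or pachytene of prophase I, DA anthers between diplotene and the first anaphase, and TT anthers from the first telophase to the second. T anthers held tetrads, the spores just after meiosis, IP anthers held immature pollen, and MAN anthers were mature. The study describes the MAN anthers as still green, a short time ahead of full pollen maturity and opening. Each stage was a single RNA pool of at least 25 anthers, amplified in 2 rounds and hybridized to 3 GeneChip Wheat Genome Arrays, 21 arrays in all. SDs, SEs and p-values below therefore cover array-to-array variation within a pool, with no plant-to-plant variation.

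The anther holds the cells that pass through meiosis and, around them, somatic layers that include the tapetum, a nurse tissue that feeds the developing pollen and lays down material of its wall. The tapetum degenerates as pollen matures, and the wall of the mature anther dries before it opens. Mature pollen is known for a transcript population that differs strongly from that of other plant tissues, with messages stored for germination and tube growth. In whole anthers, fewer cells of a type and less RNA per cell cannot be told apart.

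Only Ta.6572.1.S1_at of the 59 carries a gene symbol in the array annotation used here, and what the other probe sets encode was not analysed here. They are therefore described by their IDs. The number after the first point is a sequence cluster, S or A marks the sense or antisense strand of the design, and the endings _a_at, _s_at and _x_at mark sets whose probes can match more than a single transcript. Bread wheat has 3 related genomes, and the probes of a set can also read copies from each of them.

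On all 59 probe sets, every MAN array lay below every array of the other stages, by 5.06 to 9.01 between the highest MAN array and the lowest other array. The margin of the rule, the lowest other stage mean minus the MAN mean, ran from 6.02 to 9.40 with a median of 6.62. It was at least 7 for 19 probe sets and at least 8 for 5. Their mean levels in MAN were 3.49 to 7.84 (median 5.15), and their lowest mean in PM to IP was 9.80 to 14.66 (median 12.02).

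Brightness before maturity is built into the rule, and the levels describe it. In each of the 6 earlier stages 57 of the 59 were among the brightest 10% of the probe sets on the array, and 46 were among the brightest 5%. In MAN their rank ran from the 4.35th to the 78.9th percentile, with a median of 39.5, and 42 were below the array median.

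The word lost holds in part. The study took a level above 5 as expressed when it counted late-stage transcripts, and 5 is used here as the boundary. Its filter for early meiotic transcripts asked for a higher level as a sign of presence. Of the 59, 28 had a MAN mean below 5, 21 of them on every MAN array. The other 31 fell at least 64-fold and still had a mean above 5. Such a mean can still be low, since 42 of the 59 were below the array median in MAN. For the 28, a difference from a level below the boundary does not give a fold change of RNA.

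**Figure D1:**
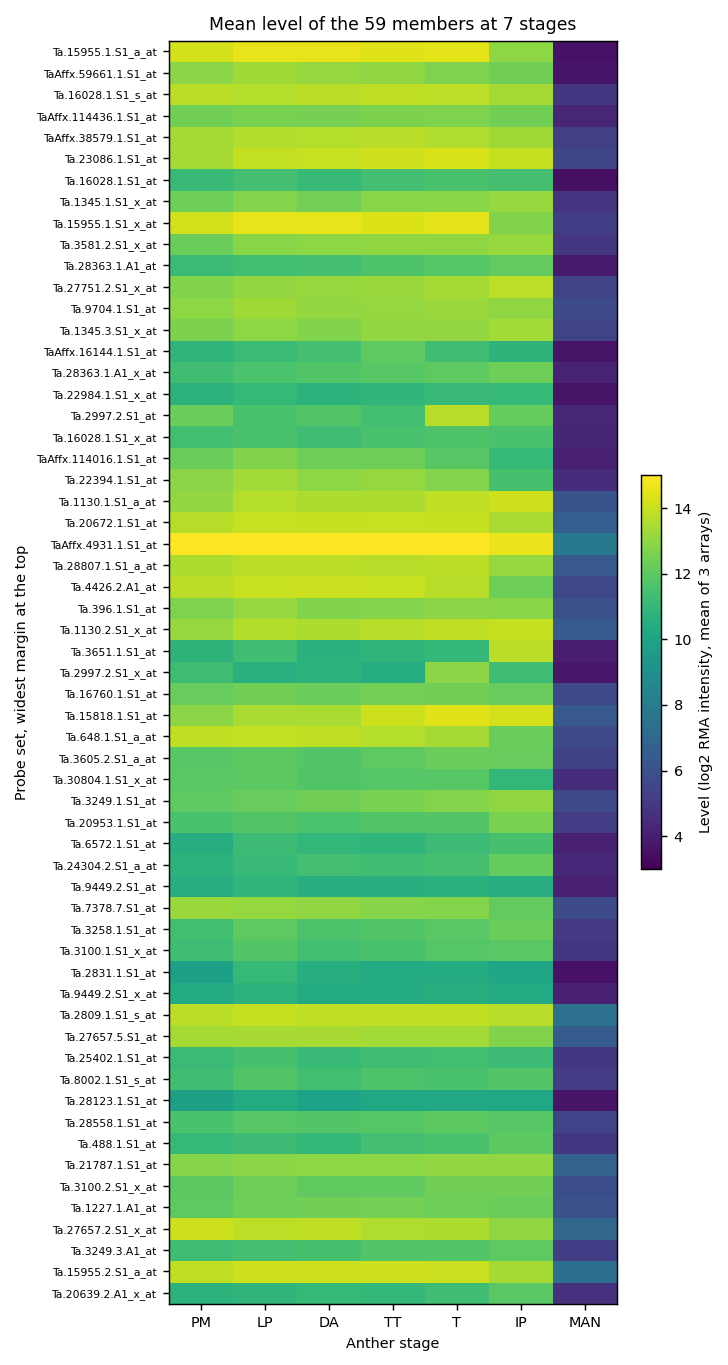
Heat map of the 59 probe sets (rows, widest margin at the top) over the 7 anther stages (columns), with colour for the mean log2 RMA intensity of 3 arrays. Every row is at 9.80 or above from PM to IP and at 7.84 or below in MAN.

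The array controls also differed in MAN. The mean of 9 hybridization control probe sets was 10.75 to 10.97 on the MAN arrays and 8.38 to 10.41 on the other arrays, where IP replicate 1 gave the lowest value and the next lowest was 9.56. The medians of all probe sets were 5.69 to 5.71 in MAN and 5.56 to 5.62 elsewhere. The 3′ minus 5′ difference of the actin control probe sets was 3.04 to 3.33 in MAN and -2.45 to -1.61 in the other stages, where its 3′ probe set was itself below 5, and for GAPDH it was -3.05 to -2.76 against -2.25 to -1.70. For EF1a (0.24 to 0.77 in MAN) and ubiquitin (0.21 to 0.49 in MAN) the values lay within the range of the other stages. The part of scaling and RNA quality in the drop was not tested. Scaling each array to its hybridization controls lowers MAN against every other stage, so margins could only widen, and the number of probe sets that met the rule then went from 59 to 158.

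The tissue labels were checked on named transcripts. The 2 meiotic genes ASY1 (a chromosome axis protein) and DMC1 (a recombinase) went from 10.90 and 11.81 in PM to 6.22 and 5.64 in MAN. Raftin1a, a protein of the pollen wall made in the tapetum, was at 13.93 in IP and 8.68 in MAN. GBSS, the granule-bound starch synthase of the waxy locus, was at 4.44 to 4.87 before maturity and at 7.91 in MAN. The other 2 starch probe sets went down, AGP-S, a subunit of ADP-glucose pyrophosphorylase, from 10.47 in IP to 9.32 in MAN and BMY1, a beta-amylase, from 11.59 to 7.29. Profilins, also chosen as markers of mature pollen, went from 10.01 in IP to 10.42 in MAN and from 13.53 to 13.90. The latter was at 13.93 in PM. Of the markers for green anther wall, PRK and PsbP are given below. The probe sets annotated FBP split, from 9.01 in IP to 6.12 in MAN and from 8.01 to 8.98.

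IP replicate 1 stood apart from the other IP arrays. Over the 59 probe sets it read 0.59 lower than the mean of IP replicates 2 and 3 (median), and it was the lowest IP array for 55 of them. The same median was -0.36 over the bright probe sets defined below and -0.06 over all probe sets tested. Without this array the rule found the same 59. Their median SD between arrays was 0.359 in IP, 0.211 in MAN, and 0.0402 to 0.184 in the other stages.

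The widest margin was that of Ta.15955.1.S1_a_at. Its 3 arrays read 14.41, 14.07 and 14.11 in PM, 14.51, 14.56 and 14.59 in LP, 14.61, 14.60 and 14.58 in DA, 14.50, 14.12 and 14.56 in TT, 14.51, 14.54 and 14.45 in T, 12.75, 12.92 and 13.22 in IP, and 3.73, 3.61 and 3.35 in MAN. It thus stood among the brightest signals of the array through the tetrad stage, was already lower in IP, and was under the boundary on every MAN array.

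TaAffx.59661.1.S1_at was next, at 12.25 to 13.37 over the 18 arrays of PM to IP and at 3.87, 3.90 and 3.41 in MAN. TaAffx.114436.1.S1_at was flat by comparison, with stage means between 12.42 and 12.67, and its MAN arrays read 4.40, 4.25 and 4.20. TaAffx.38579.1.S1_at had stage means of 13.29 to 13.70 and MAN values of 5.23, 5.33 and 5.23. These 3 and Ta.16028.1.S1_s_at (13.36 to 13.85, then 4.70, 5.16 and 5.04) are the other members with a margin of at least 8, and in none of them did a MAN array come within 7 of an earlier array.

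Ta.23086.1.S1_at was among the 5 brightest, with PM arrays at 13.61, 13.15 and 13.39, T arrays at 14.30, 14.32 and 14.24, IP arrays at 13.52, 14.12 and 14.22, and MAN arrays at 4.96, 5.82 and 5.69. The remaining members of the 10 widest margins were Ta.16028.1.S1_at (margin 7.64), Ta.1345.1.S1_x_at (7.56), Ta.15955.1.S1_x_at (7.48) and Ta.3581.2.S1_x_at (7.36). Their MAN means were 3.49, 4.80, 5.24 and 4.96. In all 10 the 3 MAN arrays formed a group apart from the other 18.

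**Figure D2:**
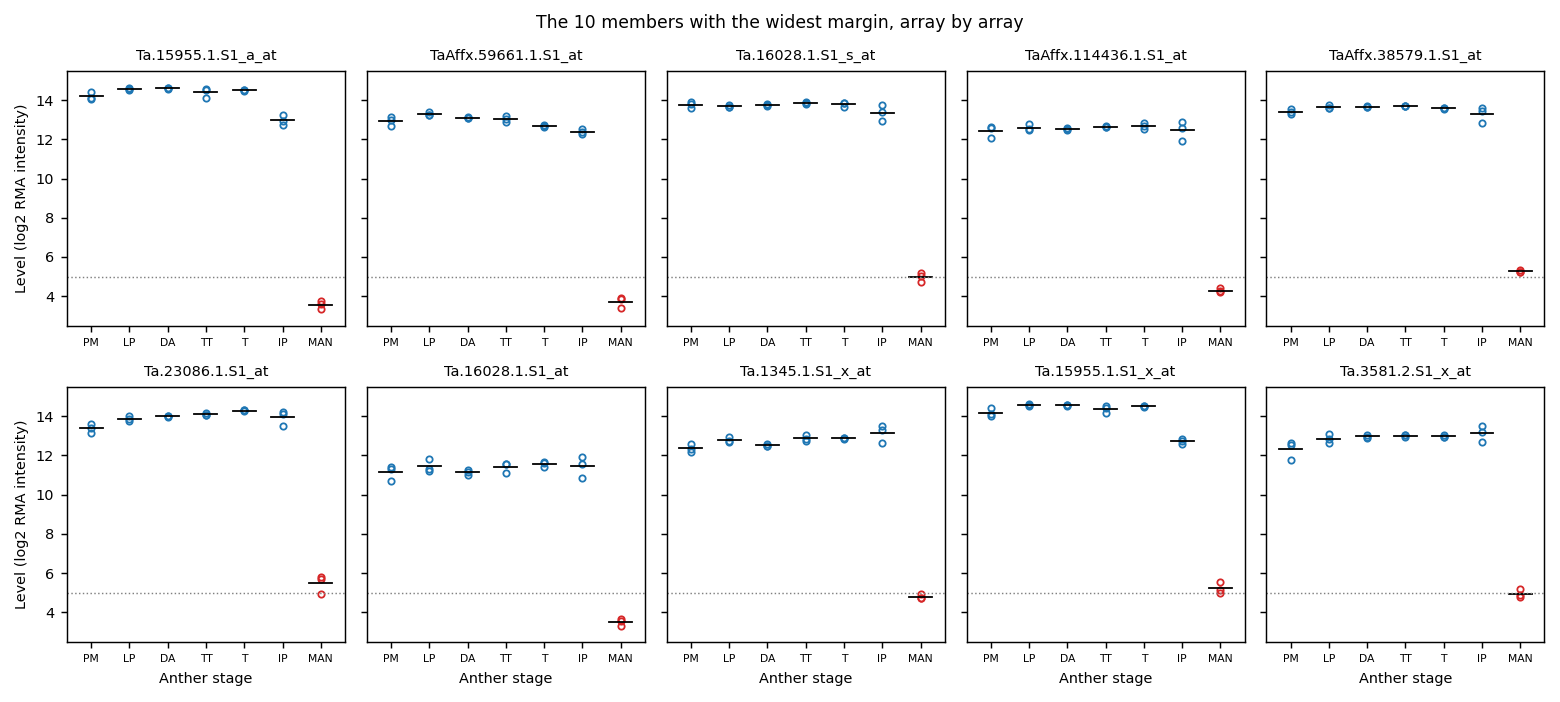
Log2 RMA intensity of each array (circles, red in MAN) and stage means (bars) over the 7 stages for the 10 probe sets with the widest margins; the dotted line is the level of 5. Earlier arrays lie between 10.72 and 14.62 and MAN arrays between 3.29 and 5.82.

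The brightest of the 59 was TaAffx.4931.1.S1_at. Its stage means were 15.04 to 15.08 from PM to T, its IP arrays read 14.08, 14.96 and 14.94, and its MAN arrays read 7.74, 7.96 and 7.82. It had the highest MAN level of the 59, so it counts as lost only relative to its earlier signal. The others of the 5 brightest were the 3 probe sets of cluster Ta.15955 (means over PM to IP of 13.94 to 14.20) and Ta.23086.1.S1_at (13.94).

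At the other end, the 5 just inside the margin were Ta.1227.1.A1_at (6.05), Ta.27657.2.S1_x_at (6.04), Ta.3249.3.A1_at (6.03), Ta.15955.2.S1_a_at (6.03) and Ta.20639.2.A1_x_at (6.02). The 5 just outside were Ta.28766.1.S1_x_at (5.995), Ta.1345.2.S1_x_at (5.95), Ta.830.1.S1_s_at (5.94), Ta.28354.1.S1_at (5.93) and TaAffx.128896.20.S1_s_at (5.93). There was no gap at the margin, and 174 probe sets passed a margin of 5.

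The rule applied to any other stage found no probe set. The largest margin by which a stage lay below all others was 2.94 in IP, 1.72 in PM and in LP, 1.11 in DA, 1.08 in T and 0.64 in TT. In the opposite direction, 307 probe sets were at least 6 higher in MAN than in each other stage, and 24 were so in IP. A level at least 6 above every other stage was thus found in the 2 last stages only, and a level at least 6 below in MAN only. The rule sets a stage against all others, so drops or gains of this size between single stages were not counted.

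The rule was also applied to part of the arrays, and the margin read on the rest. When the rule was applied to the arrays of 2 replicate numbers, it chose 59, 61 or 54 probe sets with replicate 1, 2 or 3 held out, of which 55, 55 and 51 were among the 59, an overlap that is largely built in because these arrays also chose the 59. On the held-out arrays the median margin was 6.52, 6.39 and 6.89, and the lowest was 4.26, 5.17 and 5.18. A margin of at least 6 was met there by 43, 46 and 44. The held-out arrays come from the same RNA pools, so this speaks to the arrays and not to new plants.

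For comparison, all probe sets at least as bright as the dimmest member were taken, that is with a mean of 9.80 or more in each stage from PM to IP. There were 5134, or 8.39% of the 61179 tested, and the 59 are 1.15% of those to which the rule was applied. The median of MAN minus the lowest earlier stage was -0.69 over these bright probe sets, with a 5th percentile of -4.07 and a 95th of 1.62. MAN was at least 3 lower for 496 of them and at or above the lowest earlier stage for 1505. Only 52 bright probe sets were below 5 in MAN, and 28 of these are members. This overlap is partly built in, since a bright probe set below 5 in MAN must have dropped far.

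**Figure D3:**
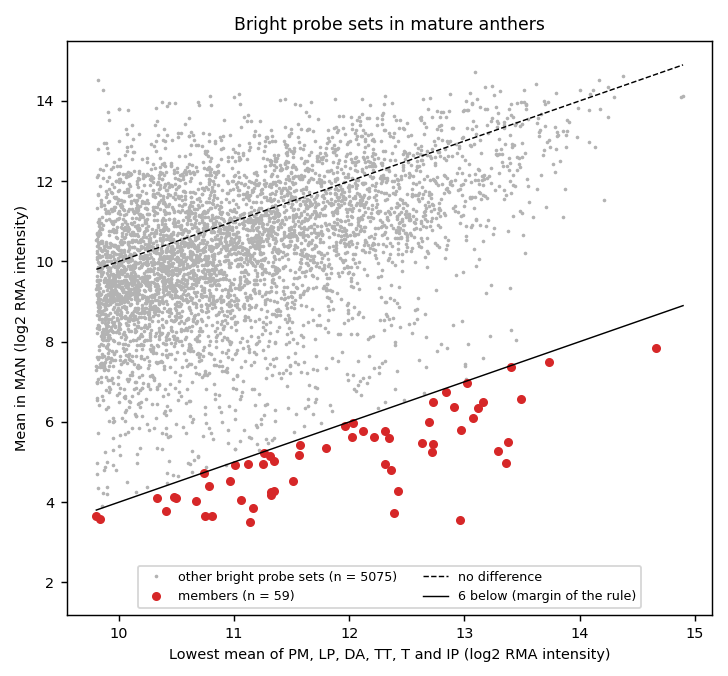
Mean log2 RMA intensity in MAN against the lowest stage mean of PM to IP for 5134 bright probe sets (grey) and the 59 members (red). The dashed line marks equal levels and the solid line a MAN level 6 lower, under which the members lie by definition, while 1505 bright probe sets lie on or above the dashed line.

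The IDs of the 59 resembled those of other bright probe sets. IDs that start with Ta rather than TaAffx made up 89.8% (53 of 59), against 92.3% of the bright and 51.4% of all probe sets with such IDs. The ending _x_at was carried by 16, or 27.1%, against 22.8% of the bright and 11.1% of all. Antisense designs were 6 of 59, or 10.2%, against 16.1% and 17.4%. Without the endings _s_at, _x_at and _a_at, 33 of the 59 are left.

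By their IDs the 59 belong to 47 clusters. No sequences were used to check these numbers, so how many transcripts the 59 stand for was not determined. In 10 clusters several probe sets met the rule, with 3 each in Ta.15955 and Ta.16028 and 2 each in 8 others, 22 in all. Levels of different probe sets cannot be set against each other, and the drop of each was fixed by the rule, so the values are given as a description. The 3 of Ta.15955 were at 13.83 to 14.19 in PM and at 3.57, 5.24 and 7.38 in MAN. In Ta.16028 the set ending _s_at was at 13.36 to 13.85 before maturity and 4.97 in MAN, and the sets ending _at and _x_at were at 11.14 to 11.70 and then at 3.49 and 4.25.

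The 8 pairs are described in the same way. The pair of Ta.28363 had MAN means of 3.87 and 4.17, that of Ta.9449 4.12 and 4.10, and that of Ta.2997 4.27 and 3.79. The pair of Ta.1345 had 4.80 and 5.47, that of Ta.1130 6.11 and 6.50, that of Ta.27657 6.51 and 6.98, that of Ta.3249 5.63 and 5.22, and that of Ta.3100 4.96 and 5.90. In the last pair the MAN arrays of Ta.3100.2.S1_x_at read 6.02, 6.51 and 5.18.

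The rule did not use the other probe sets of these clusters except to pass over them. There were 95 in 21 of the 47 clusters, and 88 had a mean above 5 in each stage from PM to IP. MAN was below the lowest earlier stage for 83 of the 88, at least 1 below for 77 and at least 3 below for 55, and it was above it for 5. The median margin was 3.46, and it could not reach 6 by construction. Among the 72 of these that were as bright as the members, 48 were at least 3 below. For reference, 496 of all 5134 bright probe sets were. The counts are unevenly spread over the clusters. Of the 88, Ta.7378 gave 37 and Ta.27657 gave 12, and of the 55 they gave 23 and 9. Some of the others differ from a member only in the ending of the ID, so they can read the same sequence. The counts are therefore not of separate genes, and no test set them against the bright probe sets.

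The cluster of the gene-symbol member shows the range. Ta.6572.1.S1_at, annotated LOC606328 with the synonyms Prx1 and TaPrx1, read 10.64, 10.60 and 10.26 in PM, 11.10, 11.57 and 11.90 in IP, and 4.34, 4.07 and 3.91 in MAN. Ta.6572.1.S1_a_at, with the same annotation, had a margin of 5.79 and a MAN mean of 4.68, and Ta.6572.2.S1_at a margin of 4.78 and a MAN mean of 4.33. Ta.6572.3.S1_at was near the boundary throughout, at 4.87 in PM, 5.24 in IP and 5.44 in MAN. The 3 probe sets that were well above the boundary before maturity were thus below it in MAN, and the other was not.

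In cluster Ta.27657 other probe sets are annotated as the histone H2A gene wcH2A-9, whose product packs DNA into nucleosomes. The cluster's members, Ta.27657.2.S1_x_at and Ta.27657.5.S1_at, are not annotated. The 12 other probe sets had margins of -3.25 to 5.78, and 9 were at least 3 below. Ta.27657.3.S1_at went the other way, from 10.32 in PM to 13.31 in MAN. Ta.7378.7.S1_at shares its cluster with the histone H2B gene wcH2B-8, and the 37 other probe sets there had margins of 0.87 to 5.56, with 23 at least 3 below. In cluster Ta.27751 the 8 others ran from -1.93 to 5.58 beside a member margin of 7.28. A shared cluster number thus did not fix the level in MAN.

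**Figure D4:**
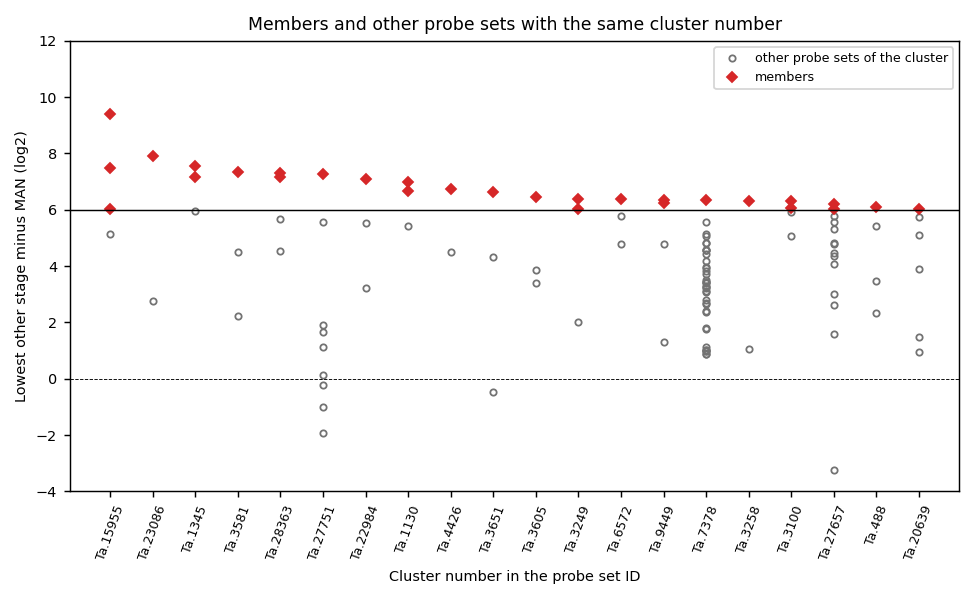
Margin (log2, lowest stage of PM to IP minus MAN) of the members (red diamonds) and of the other probe sets with the same cluster number (circles, those above 5 from PM to IP), by cluster. The solid line at 6 separates them by the rule; the circles run from -3.25 to 5.95.

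The gene lists put the drop beside transcripts of known role. None of the lists holds one of the 59, of which only Ta.6572.1.S1_at carries a gene symbol. Of 9 histone H2A probe sets 6 were at least 3 lower in MAN than in every other stage, as were 7 of 9 for histone H2B. For raftins it was 2 of 4 and for photosynthesis probe sets 2 of 5. Median margins were 3.14, 3.94, 3.12 and 1.08. Over all 61179 probe sets 984 were at least 3 lower, and over the 5134 bright ones 496. Several probe sets of a list read the same gene, so these counts are not of genes. By limma (adjusted p under 0.05) 8 of the 9 H2A, all 9 H2B, all 4 raftin and 4 of 5 photosynthesis probe sets were lower in MAN than in IP. The share was 25.6% of all probe sets and 67.5% of the bright ones. All 59 members were lower too, which is no finding since the rule used that step. Other lists went both ways. All 8 translation and ribosomal and 8 of 10 tubulin probe sets (1 higher) were called lower. All 4 gibberellin 20-oxidase, 2 of 2 profilin and 5 of 13 seed storage probe sets were called higher.

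Named examples were PRK (Ta.23158.1.S1_at), phosphoribulokinase of the Calvin cycle, at 11.06 in IP and 4.92 in MAN, and PsbP (Ta.85.1.S1_at), an oxygen-evolving protein of photosystem II, at 12.49 and 6.70. RPL9 (Ta.14183.1.S1_at), a ribosomal protein, was at 10.48 and 4.70, while the other 7 probe sets for translation factors and ribosomal proteins were less than 3 below. Tubulins, which build microtubules, had 1 of 10 at least 3 lower. Profilins, actin-binding proteins abundant in pollen, had a median margin of -0.41, gibberellin 20-oxidases -1.42 and seed storage proteins -0.26, none with a member 3 lower. The 3 starch probe sets and the heat shock probe set had medians of 0.96 and 0.09. Of 15 meiotic transcripts from the study's primer list 3 were at least 3 lower, with a median of 1.75. This list also went both ways from IP to MAN, with 12 called lower by limma and 2 higher. The 2 were WMC10, from 9.66 to 13.46, and WMC3, from 6.35 to 7.29. A MAN level at least 3 below every other stage was thus found for histone, raftin, photosynthesis and meiotic probe sets, a tubulin and RPL9. A level 6 below every other stage was found in no list. Outside the meiotic list, this only repeats that no list holds a probe set chosen by the rule. Ta.27657.2.S1_x_at, Ta.27657.5.S1_at and Ta.7378.7.S1_at, which met the rule, share clusters with listed histone probe sets but are not annotated. The lists therefore cannot show whether histone transcripts reach such a drop. From single earlier stages the fall was larger for some listed probe sets, as for PRK from IP.

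Changes among the earlier stages were tested, since the rule requires only that all 6 be high. Over PM to IP the range of the stage means was 0.21 to 3.08 with a median of 0.79, against 0.607 for the bright probe sets. It was under 1 for 37 of the 59, under 0.5 for 21 and at least 2 for 3. The lowest of the 6 stages was PM for 28, IP for 22, DA for 7 and TT for 2. The highest was IP for 20, LP for 18, T for 11, TT for 5, DA for 3 and PM for 2. So the drop in MAN did not continue a shared decline. The counts for PM and IP include PM replicate 3 and IP replicate 1, which read low for the members in their stages.

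The flattest 5 were Ta.2809.1.S1_s_at (range 0.21), Ta.21787.1.S1_at (0.22), TaAffx.114436.1.S1_at (0.25), Ta.16760.1.S1_at (0.29) and Ta.9704.1.S1_at (0.30). Ta.2809.1.S1_s_at had stage means of 13.73 to 13.95 and read 7.52, 7.47 and 7.51 in MAN. Ta.21787.1.S1_at had 12.84 to 13.06, and then 6.66, 7.16 and 6.45. In Ta.16760.1.S1_at (12.21 to 12.51, then 5.52, 5.70 and 5.68) and Ta.9704.1.S1_at (12.97 to 13.27, then 5.81, 5.86 and 5.69) MAN was also above the boundary. All but TaAffx.114436.1.S1_at of these 5 thus kept a MAN mean above 5.

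From PM to T the 59 tended upwards. The median change was 0.33, against -0.04 for the bright and -0.01 for all probe sets, and 49 of 59 were above 0. By limma (adjusted p under 0.05) 20 were higher in T, from 16 clusters, and 3 were lower. The 20 are 33.9% of the members, against 13.1% of the bright and 7.03% of all probe sets, and the 3 are 5.08%, against 15.6% and 9.61%. At least 2-fold changes were 3 higher (5.08%, against 1.87% and 1.5%) and 0 lower (against 0.662% and 0.901%), a count that was also 0 at an unadjusted p under 0.05. No test compared the members with the bright probe sets. PM replicate 3 read low for the members, with a median level of 11.90 against 12.32 and 12.54 on PM replicates 1 and 2. The median change without this array was not computed. With a PM array, a T array or IP replicate 1 left out, 18 to 23 members were called higher in T.

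The size of this tilt depended on scaling. After scaling to the hybridization controls the median over the whole array went from -0.01 to 0.35 and that of the members from 0.33 to 0.70, and 5 were called higher and 0 lower. Since this scaling moves every probe set of an array by the same amount, it leaves the distance between the members and all probe sets as it was.

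Ta.2997.2.S1_x_at and Ta.2997.2.S1_at had 2 of the 3 largest rises. Ta.2997.2.S1_at read 12.37, 12.61 and 11.94 in PM, 11.42, 11.42 and 11.89 in LP, 11.76, 11.71 and 11.74 in DA, 11.44, 11.19 and 11.40 in TT, 13.77, 13.76 and 13.64 in T, 11.91, 12.08 and 12.44 in IP, and 4.11, 4.39 and 4.31 in MAN. Its T arrays lay above all others, so that it peaked at the tetrad stage. From PM to T it rose by 1.42 (SE 0.154, limma adjusted p = 1.2e-07), and from TT to T by 2.38 (SE 0.154, adjusted p = 1.5e-11). Ta.2997.2.S1_x_at of the same cluster rose by 1.60 (SE 0.186, adjusted p = 4.1e-07) and by 2.49 (adjusted p = 3.1e-10). Both fell from PM to LP, by 0.73 (adjusted p = 0.0046) and 0.68 (adjusted p = 0.027).

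Ta.15818.1.S1_at rose in steps, into LP by 0.58 (limma adjusted p = 0.02) and into TT by 0.63 (adjusted p = 0.019). Its arrays read 13.19, 12.56 and 12.98 in PM, 13.45, 13.43 and 13.59 in LP, 13.51, 13.46 and 13.45 in DA, 14.03, 14.25 and 14.03 in TT, 14.45, 14.51 and 14.45 in T, 13.78, 14.48 and 14.39 in IP, and 6.40, 6.43 and 6.28 in MAN. The PM and T arrays did not overlap, and the change was 1.56 (SE 0.149, limma adjusted p = 1.5e-08). Ta.23086.1.S1_at rose by 0.91 (SE 0.175, adjusted p = 0.00045) and Ta.1130.1.S1_a_at by 0.79 (SE 0.167, adjusted p = 0.0011). All 20 members called higher had T arrays above their PM arrays.

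The 3 called lower in T were Ta.27657.2.S1_x_at, which fell by 0.54 (SE 0.12, limma adjusted p = 0.0019), Ta.648.1.S1_a_at by 0.43 (adjusted p = 0.028) and TaAffx.114016.1.S1_at by 0.43 (adjusted p = 0.026). Ta.27657.2.S1_x_at read 14.13, 14.12 and 13.97 in PM and 13.52, 13.57 and 13.52 in T. The other 2 calls were near the threshold. Ta.648.1.S1_a_at was not called without PM replicate 1 or 2 or T replicate 1 or 3 (changes of -0.44 to -0.39, adjusted p of 0.067 to 0.12), and TaAffx.114016.1.S1_at was not called without PM replicate 1 or 3 or T replicate 1 or 3 (-0.44 to -0.29, adjusted p of 0.055 to 0.19).

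Between neighbouring stages up to T few members changed. From PM to LP 8 were higher (13.6%, against 3.67% of all and 11.2% of the bright) and 2 lower (3.39%, against 2.26%). From LP to DA 0 were higher (1.64% of all) and 2 lower (2.91% of all), from DA to TT 2 were higher (1.29%) and 0 lower (1.25%), and from TT to T 2 were higher (3.13%) and 2 lower (3.09%). For the counts of 0, limma at an unadjusted p under 0.05 gave 1 higher in DA and 2 lower in TT, and the adjusted t-test gave 0 for both. The largest rise into LP was that of Ta.2831.1.S1_at, by 1.21 (SE 0.336, adjusted p = 0.031), where PM arrays at 10.64, 9.07 and 9.78 overlapped LP arrays at 10.83, 10.51 and 11.79. For Ta.6572.1.S1_at the rise was 0.71 (SE 0.178, adjusted p = 0.017). From LP to T these probe sets thus gave few calls, at shares near those of all probe sets.

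TaAffx.16144.1.S1_at peaked in TT. It rose by 0.62 from DA (adjusted p = 0.012 in limma), to 11.94, 12.18 and 11.92 in TT, and fell by 0.67 to T (adjusted p = 0.0022), and its MAN arrays read 3.40, 3.90 and 3.65.

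In the step before the drop, from T to IP, members moved both ways. By limma 6 were higher in IP (10.2%, against 10.2% of the bright and 8.01% of all) and 16 lower, from 12 clusters (27.1%, against 24.6% and 9.28%). At least 2-fold changes were 1 higher (1.69%, against 2% of all) and 7 lower, from 5 clusters (11.9%, against 2.24% of the bright and 1.39% of all). The median change was -0.14, against -0.13 for the bright and -0.04 for all probe sets, and 39 were below 0. After scaling to the hybridization controls the members' median turned to 0.08 and 23 were below 0, while the median over the whole array was 0.18. The control mean was 8.38 on IP replicate 1, 10.10 and 10.01 on the other IP arrays, and 9.56 to 9.84 in T. Against T this scaling thus raised IP replicate 1 and not the other IP arrays. The scaling was not repeated without that array. Without IP replicate 1, the array that read low, the members called higher numbered 13 and those called lower 12. It was also the lowest IP array for 4245 of the 5134 bright probe sets. Shares of other probe sets are not given without it, so this shift is not read as particular to the members.

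The largest change of the step was a rise. Ta.3651.1.S1_at read 10.95, 10.89 and 10.57 in PM, 11.27, 11.16 and 11.58 in LP, 10.78, 10.71 and 10.51 in DA, 10.80, 10.89 and 10.88 in TT, 11.01, 11.00 and 11.00 in T, 13.36, 13.85 and 14.04 in IP, and 4.13, 3.93 and 4.02 in MAN. It rose by 2.75 (SE 0.143, limma adjusted p = 5e-14) and then fell to a mean of 4.03 in MAN, below the boundary of 5. In its cluster Ta.3651.3.S1_x_at went from 11.39 in T to 13.97 in IP and 6.75 in MAN, and Ta.3651.2.S1_a_at, at 4.35 to 4.53 from PM to T, was at 7.59 in IP and 4.43 in MAN. A peak in IP was thus seen in other probe sets of the cluster also.

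Smaller rises into IP were those of Ta.20953.1.S1_at, by 0.78 (SE 0.156, adjusted p = 0.00056), Ta.24304.2.S1_a_at, by 0.71 (SE 0.15, adjusted p = 0.0011), Ta.20639.2.A1_x_at, by 0.60 (SE 0.146, adjusted p = 0.0041), and Ta.488.1.S1_at, by 0.40 (SE 0.13, adjusted p = 0.032), all by limma. The last 3 had also risen from PM to T. The rise of Ta.488.1.S1_at was not called without any of the 3 T arrays or without IP replicate 2 or 3 (0.27 to 0.41, adjusted p of 0.076 to 0.19).

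The largest fall was that of Ta.15955.1.S1_x_at. It read 14.47, 14.54 and 14.52 in T, 12.75, 12.56 and 12.85 in IP, and 5.16, 5.55 and 5.02 in MAN, a fall by 1.79 into IP (SE 0.129, limma adjusted p = 4e-11). Ta.15955.1.S1_a_at fell by 1.54 (SE 0.131, adjusted p = 1.1e-09), and Ta.15955.2.S1_a_at by 0.65 (SE 0.19, adjusted p = 0.016). The 2 sets of Ta.2997 fell from their peak in T by 1.64 (adjusted p = 1.9e-07) and 1.58 (adjusted p = 1.2e-08), back to levels near those of PM.

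Ta.4426.2.A1_at read 13.76, 13.76 and 13.64 in T, 12.01, 12.31 and 12.71 in IP and 5.82, 5.57 and 5.42 in MAN, and fell by 1.37 into IP (SE 0.133, limma adjusted p = 1.2e-08). Ta.22394.1.S1_at fell by 1.27 (SE 0.143, adjusted p = 1.6e-07) and Ta.648.1.S1_a_at fell by 1.09 (SE 0.137, adjusted p = 9.7e-07). These probe sets had begun to fall before the mature stage, and each fell by over 6 more from IP to MAN.

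**Figure D5:**
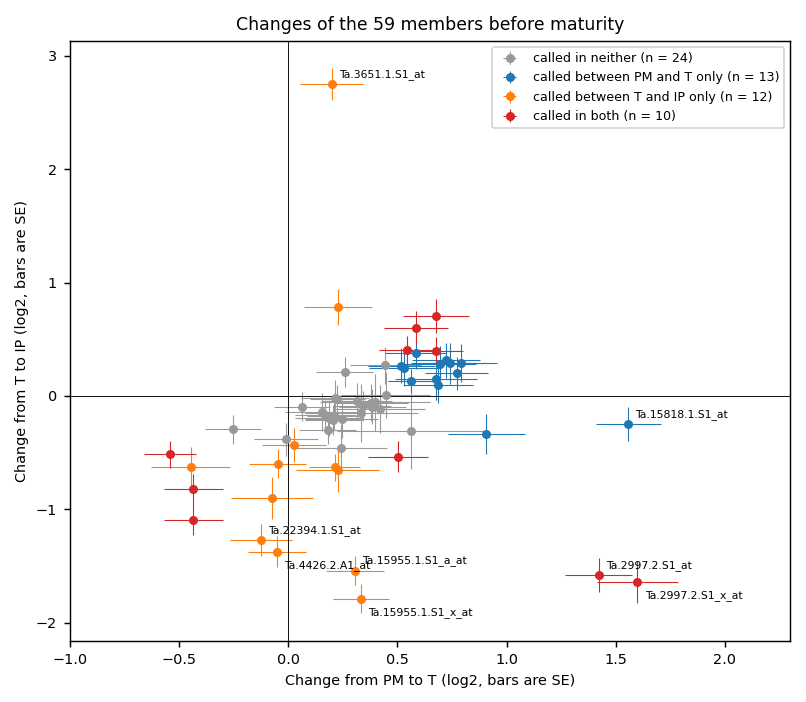
Log2 change from PM to T (horizontal) against that from T to IP (vertical) for the 59 members, with bars for the limma SE and colours for the calls in each. Ta.3651.1.S1_at lies alone at the top (2.75), and the 2 sets of Ta.2997 at the lower right (-1.58 and -1.64).

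Taking both comparisons together, 24 of the 59 were called in neither, 13 were higher in T and not called in IP, 10 were lower in IP alone and 2 higher in IP alone. A further 4 rose in both, 3 rose and then fell, and 3 fell in both. Over all 6 comparisons 22 were called in none. The members thus did not share a single course before maturity, and those that were still rising in IP and those that were falling both met the rule. The joint counts were made for the members alone, so whether other bright probe sets differ in this was not examined.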

How the data were processed

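Whole anthers at 7 stages were hybridized to 21 arrays, 3 technical replicates of 1 amplified pool per stage. The authors computed the deposited intensity values with RMA, and they are on a linear scale, although the analysis plan assumed log2; log2 of each deposited value was taken. Stages were compared with limma 3.58.1 (R 4.3.3) in a single model over all arrays (14 residual degrees of freedom), adjusted by Benjamini-Hochberg over 61179 probe sets, with an adjusted p under 0.05 as a call. The fit was tested on simulated data. The number of arrays limits the precision. Summaries and plots used Python 3.11.15, pandas 2.3.3, numpy 2.4.6 and matplotlib 3.10.9.

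The members and gene lists were chosen with earlier results of these data known. Named members were the 10 widest margins, 5 nearest the margin, the 5 highest and 5 lowest called changes from PM to T and T to IP whose arrays do not overlap, the 5 flattest, the 5 brightest, any with a gene symbol, and those that share a cluster. Others were named after their values were seen, and the held-out replicates were added then. Gene names came from the platform annotation (1273 probe sets with a symbol, 200 with a name). The alternatives were other margins, stage summaries and scalings, a t-test after the study's methods, 2-stage fits, array weights, a replicate block, filters and omitted arrays.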

Additional observations from a re-analysis of the deposited data

How the results depend on the processing

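The number of members (59) was 174 with a margin of 5, 19 with a margin of 7, 33 when every MAN array had to lie 6 below every other array, 158 with scaling to the hybridization controls, and 33 without the endings _s_at, _x_at and _a_at. With an array left out it was 57 to 62. Members called higher in T than PM (20) were 3 at 2-fold, 12 by the methods' t-test, 5 with hybridization scaling and 10 without the endings, and 18 to 23 with an array left out. Members lower in T (3) were 0 at 2-fold, 0 with hybridization scaling (0 also at an unadjusted p under 0.05), 5 with array weights and 1 without the endings, and 1 to 3 with an array left out. Members higher in IP than T (6) were 1 at 2-fold, 1 by the t-test, 3 in a fit of the 2 stages alone, 1 with hybridization scaling, 15 with array weights and 3 without the endings, and 4 to 13 with an array left out (13 without IP replicate 1). Members lower in IP (16) were 7 at 2-fold, 6 by the t-test, 5 with hybridization scaling and 7 without the endings, and 12 to 18 with an array left out. The cause of these shifts was not tested, except that leaving out probe sets by ending leaves fewer members to count. Shares over all probe sets are not given for these settings, so the counts show how the calls moved and nothing particular to the members.

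Deviations of same-numbered arrays from their stage means had correlations of -0.04, 0.01 and 0.12 between T and PM. Between IP and T they were -0.21, 0.07 and -0.06. With 3 arrays per stage and no other stage pairs examined, this cannot settle whether the replicate numbers pair the arrays. With the replicate block the 4 counts were 20, 3, 6 and 16, as without it. The 18 named changes from PM to T or T to IP kept their direction under the block, both scalings and each omitted array, and 7 of the 18 were no longer called with hybridization scaling. Of these, the 4 rises into IP became larger (0.63 to 1.01, from 0.40 to 0.78), and the 3 falls from PM to T became smaller (-0.18 to -0.07, from -0.54 to -0.43). Among the IP arrays, this scaling raised only IP replicate 1 against T, and it was not repeated without that array. With an array left out Ta.648.1.S1_a_at, TaAffx.114016.1.S1_at and Ta.488.1.S1_at lost their calls, as given with their values above. Levels below 5 in MAN, found for 28 members, limit what a fold can mean.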
